A study of Mus musculus with 19 samples.

Results

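Chemokine ligand genes were followed in RNA-seq values from the tongue epithelium of 19 mice. The family was taken as each listed gene symbol that begins with Ccl or Cxcl and a number, together with Cx3cl1 and Xcl1, which gave 34 of the 24689 symbols. Of these 34 genes, 32 passed a filter of 0.1 TPM (transcripts in 1000000), to be reached in 3 mice or more, and could be tested among 22745 genes. Ccl1 and Ccl19 did not pass it and are described by their reads. The platelet chemokine genes Pf4 and Ppbp carry other names and are given apart.

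The study turned on the E6-E7 oncogenes of a human papillomavirus, a constitutively active YAP1S127A, or both, in mouse oral epithelium, and collected the epithelium on day 15. Group N held 5 mice, E held 5, Y held 3 and EY held 6, all between 8 and 16 weeks of age. E mice carry Krt14-CreERT, LSL-rtTA and tetON_E6-E7, Y mice carry tetON_YAP1S127A in place of tetON_E6-E7, and EY mice carry both effector alleles. N mice 1 to 3 carry Krt14-CreERT and LSL-rtTA alone, N mouse 4 has LSL-rtTA without a Cre allele, and N mouse 5 has Krt14-CreERT and both effector alleles without rtTA. Per the methods of the study, the breeding lines also bear a tetON_H2B-GFP reporter, and induction was by tamoxifen injected into the tongue with doxycycline in the diet. The Krt14 promoter limits recombination to basal cells, whereas the RNA came from the whole peeled epithelium. Between 8269674 and 11007304 reads per mouse lay behind the values. The 7 oral epithelial markers looked at (Krt14, Krt5, Krt13, Krt4, Trp63, Cdh1 and Epcam) were above 0 in each group, and Krt13 was the most abundant of them per transcript length.

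Chemokines are small secreted or membrane-bound proteins that guide leukocytes through G protein-coupled receptors, and their families are named after the spacing of conserved cysteines near the amino terminus. Many are nearly silent in resting epithelium and are induced within hours by inflammatory cytokines through NF-kB or interferon signalling, while a few are made constitutively. In oral mucosa and skin, keratinocytes, stromal cells and resident leukocytes can all make them, so that a level in whole epithelium belongs to no single cell type.

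Genes were compared with each other per transcript length. The deposited TPM follow the length of the whole gene, introns included, in 98.1% of 23803 matched genes (within 1%), so they compare mice for a given gene and not genes with each other. Reads per length of the longest coding transcript, scaled to 1000000, were available for 32 of the 34 ligands, all but Ccl19 and Ccl21a. On this scale Ccl6, a rodent ligand of CCR1, was the most abundant ligand by mean in N (38.2 ± 18.6, SD, n = 5) and in E (30.3 ± 24.8, n = 5). Cxcl16, the membrane-anchored ligand of CXCR6, led in Y (81.2 ± 13.0, n = 3) and in EY epithelia (121 ± 10.2, n = 6). In EY it was followed by Ccl11 at 98.1 ± 67.0 and Cxcl1 at 93.2 ± 63.4, with ranges over the mice that overlap its own. Ccl6 led in all 5 N mice but in only 2 of 5 E mice, where Cxcl10 led in mice 2 and 3 and Cxcl16 in mouse 4. Among single EY mice, Cxcl1 led in mouse 2, Ccl11 in mouse 3 and Cxcl3 in mouse 4.

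The summed ligand level per transcript length was 326, 171, 102, 84.3 and 97.5 in N mice 1 to 5 and 166, 211, 172, 62.1 and 305 in E mice 1 to 5. It was 211, 298 and 447 in the Y mice, and in EY it ran from 478 through a median of 647 to 1215. The lowest EY mouse thus lay above the highest mouse of each other group, while N, E and Y overlapped. N mouse 1 and E mouse 5 were the highest of their groups, and E mouse 4 was the lowest of all 19. Group means were 156 ± 101 (N), 183 ± 87.6 (E), 319 ± 119 (Y) and 722 ± 268 (EY). No test was run on this sum, since it is a score over genes chosen with earlier results known.

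**Figure D1:**
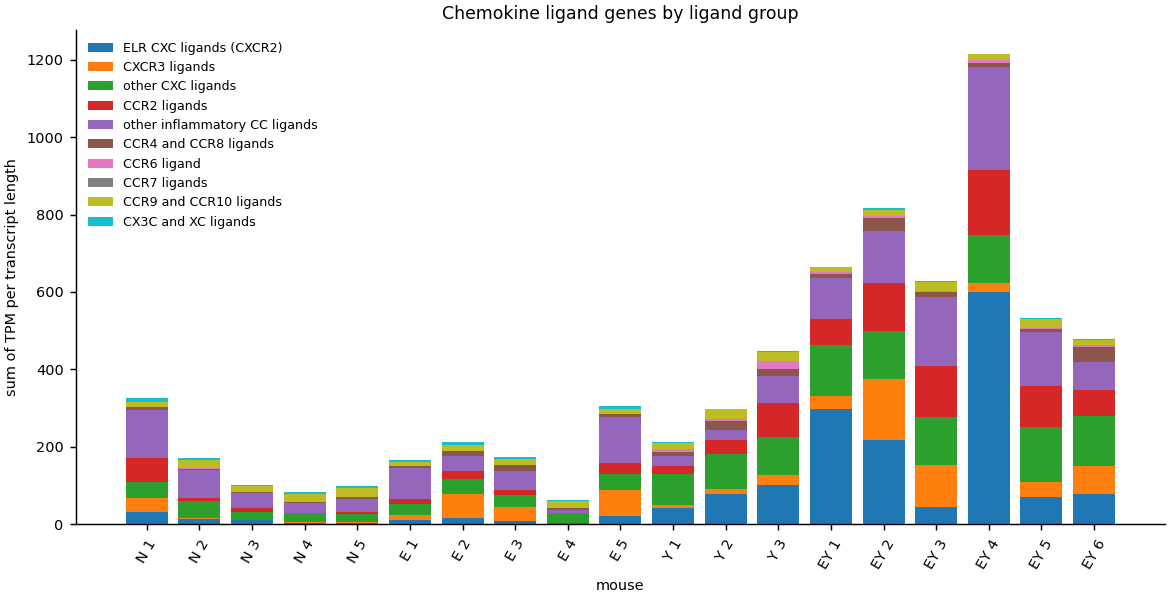
Summed TPM per transcript length of the chemokine ligand genes in each of the 19 mice, with each bar divided by ligand group. EY bars run from 478 to 1215, above the highest bar of N (326), E (305) and Y (447).

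The comparison of EY with N asks what both oncogenic changes do together. Called genes had a Benjamini-Hochberg adjusted p under 0.01 over all genes tested and differed by more than 1 on the log2 scale. Of the 32 ligands tested, 10 were called higher in EY, beside 12.6% of all genes, and 2 were called lower, beside 5.71%. The 10 higher ligands were Cxcl1, Cxcl3, Cxcl9, Cxcl10, Cxcl11, Cxcl16, Ccl2, Ccl11, Ccl17 and Ccl20, and the 2 lower were Cx3cl1 and Cxcl14. The median log2 fold change was 1.33 over the ligands and 0.33 over all genes. After median-of-ratios scaling these medians were 1.00 for the ligands and 0.011 for all genes. Under that scaling the share of called genes that were higher moved from 68.8% of 4157 to 43.8% of 3512, and among the ligands 8 were called higher and 2 lower. In whole epithelium, fewer cells of a type and less RNA per cell cannot be told apart.

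YAP1S127A alone against N gave 5 ligands called higher, beside 3.47% of all genes, and 0 called lower, beside 1.11%. These were Cxcl1, Cxcl16, Ccl2, Ccl17 and Ccl20. In limma 12 of the 32 ligands had an unadjusted p under 0.05, beside 6562 of all 22745 genes in either direction. Of these 12 ligands 8 were higher in Y, and limma voom on the reads called 4, with 0 lower. The count of 5 was 3 without N mouse 4 or N mouse 5 and 2 without Y mouse 2 or Y mouse 3. The median log2 fold change was 0.55 over the ligands and 0.13 over all genes, with Ccl12 and Xcl1 at 0 in all Y mice and the median unmoved when they are set to their bounds. The share of called genes that were higher went from 75.8% of 1042 to 57.2% of 916 after scaling. All 6 fibroblast markers lay below 0 in Y against N (median log2 fold change -1.58), with 0 called by limma, 1 at an unadjusted p under 0.05 and 1 called by voom (Dcn, -1.86 ± 0.52, adjusted p = 0.0206 by limma and 0.00231 by voom). In the epithelial list 6 of 7 genes had an unadjusted p under 0.05, 4 of them higher in Y, with 0 called by limma and 1 by voom. At that level 1 of 8 monocyte or macrophage markers was lower and 1 of 6 Langerhans or dendritic cell markers higher, with 0 called. The part of these cells in the Y ligand values was not tested.

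E6-E7 alone against N gave 0 ligands called higher, beside 1.16% of all genes, and 0 called lower, beside 0.044%. With limma, 6 of the 32 ligands had an unadjusted p under 0.05, all of them higher in E, beside 3358 of all 22745 genes in either direction. Limma voom also called 0. The nearest to the threshold was Cxcl11 (log2 fold change 3.43, adjusted p = 0.0323), and without E mouse 4 the count was 1. The median log2 fold change was 0.19 over the ligands and 0.07 over all genes. All 3 comparisons share the same N mice, so their values stand side by side and are not independent.

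**Figure D2:**
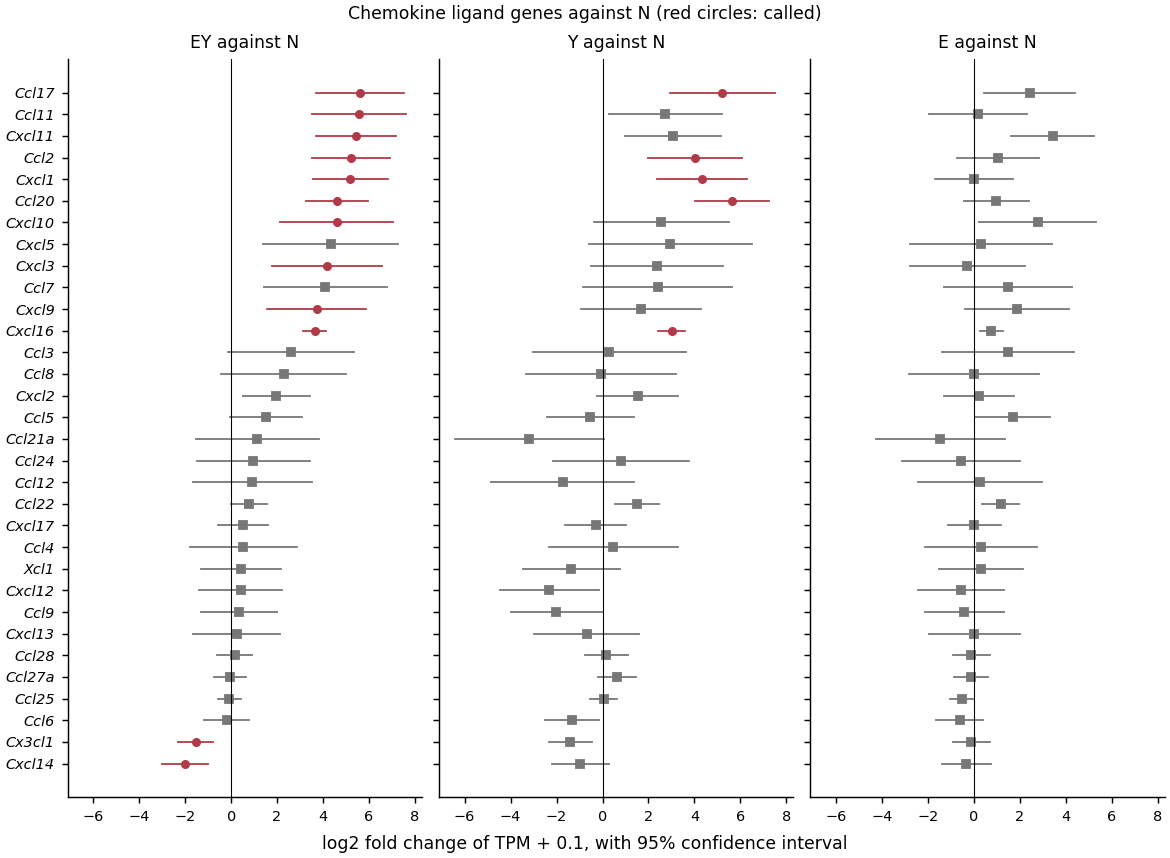
Log2 fold change of each of the 32 tested ligands against N, with its 95% confidence interval, for EY (left), Y (middle) and E epithelia (right), ordered by the EY value. Red circles are called genes: 12 in EY, 5 in Y and 0 in E.

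The CXC ligands with the ELR motif act on CXCR2 and attract neutrophils. Of the 4 in the table, 2 were called in EY (Cxcl1 and Cxcl3), 1 in Y (Cxcl1) and 0 in E, where limma also gave 0 at an unadjusted p under 0.05 and voom 0. By voom 1 was called in EY (Cxcl1) and 0 in Y. Their median log2 fold change was 4.25 (EY), 2.66 (Y) and 0.12 (E). Cxcl3, Cxcl1 and Cxcl2 lie next to each other on chromosome 5, and their promoters are shown because 2 of these 3 neighbours rose in EY. The sequences are the 250 bases before each gene start, from RefSeq on the build GRCm38.p6, at chr5:90785851-90786100 for Cxcl3, chr5:90890995-90891244 for Cxcl1 and chr5:90903649-90903898 for Cxcl2, all on the plus strand. Capitals mark matches to the NF-kB consensus and, near the left end of Cxcl3, to the TEAD motif GGAATG.
Cxcl3: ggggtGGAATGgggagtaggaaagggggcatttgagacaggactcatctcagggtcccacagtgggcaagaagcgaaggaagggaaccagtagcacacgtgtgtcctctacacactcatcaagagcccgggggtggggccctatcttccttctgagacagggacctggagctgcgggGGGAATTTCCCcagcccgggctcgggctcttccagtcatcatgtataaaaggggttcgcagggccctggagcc
Cxcl1: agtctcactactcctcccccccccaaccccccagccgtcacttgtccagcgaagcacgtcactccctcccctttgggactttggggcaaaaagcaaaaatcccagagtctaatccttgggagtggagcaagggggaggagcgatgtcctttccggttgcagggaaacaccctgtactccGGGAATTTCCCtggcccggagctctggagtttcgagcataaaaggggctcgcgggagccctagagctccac
Cxcl2: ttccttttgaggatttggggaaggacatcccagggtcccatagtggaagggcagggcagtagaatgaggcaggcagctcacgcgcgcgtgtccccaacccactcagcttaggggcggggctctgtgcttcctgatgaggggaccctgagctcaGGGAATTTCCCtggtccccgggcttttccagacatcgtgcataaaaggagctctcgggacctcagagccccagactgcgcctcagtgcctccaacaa

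In each of the 3 promoters the NF-kB consensus matches on both strands with an offset of a single base, so that the capitals form 1 stretch. It spans positions -73 to -63 in Cxcl3, -71 to -61 in Cxcl1 and -97 to -87 in Cxcl2, counted from the gene start. A match describes the letters only, and binding was not tested.

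Cxcl1 stood at 6.99, 7.19, 2.73, 2.10 and 0.888 TPM in N mice 1 to 5 and at 0.292, 10.4, 4.22, 2.50 and 7.03 TPM in E mice 1 to 5. The Y mice had 37.3, 97.3 and 72.5 TPM of it, and the EY mice 36.1 at the lowest, 141 at the median and 310 at the highest. All Y and EY mice lay above all N and E mice, with EY mouse 4 highest and EY mouse 3 just below the lowest Y mouse. Cxcl1 rose in EY (log2 fold change 5.19 ± 0.77, standard error, adjusted p = 3.2e-05, higher in 6 of 6 mice than in any N mouse) and in Y (4.34 ± 0.93, adjusted p = 0.004, 3 of 3). After scaling the values were 4.82 and 4.15. The Y call was lost without N mouse 4 or 5 or Y mouse 2 or 3 (adjusted p 0.0107 to 0.0224) and by voom (0.0181), within a range of 0.000742 to 0.0337 over the alternatives.

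Cxcl3 was at 7.17, 2.51, 0.915, 0.703 and 0.476 TPM in N and at 2.66, 3.89, 0.566, 0 and 4.48 TPM in E mice. Its Y values were 6.39, 4.18 and 18.5 TPM, and its EY values ran from 2.71 through 27.8 to 208 TPM. EY mice 4 and 1 stood far above the others, and EY mouse 6 lay among the N mice. The log2 fold change in EY was 4.17 ± 1.13 (adjusted p = 0.0064, 5 of 6 mice above all N mice). That call did not hold without N mouse 3, 4 or 5 or EY mouse 1, 2 or 4 (adjusted p 0.0136 to 0.0202), after scaling (3.81, adjusted p = 0.0134) or by voom (0.0842), in a range of 0.00172 to 0.0842.

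Cxcl5 had 11.6, 3.36, 7.06, 0 and 0.245 TPM in N and 4.6, 3.43, 3.20, 0 and 5.26 TPM in E. In Y it was at 9.87, 5.33 and 33.2 TPM, and in EY between 2.88 and 312 TPM with a median of 37.2. The EY mice spread widely here, with mouse 4 highest and mouse 6 lowest, as for Cxcl3. Its log2 fold change in EY, 4.33 ± 1.39, did not pass the test (adjusted p = 0.0185). Cxcl2 in EY differed by 1.96 ± 0.69 on the log2 scale (adjusted p = 0.0304), from 11.6 ± 11.2 TPM in N to 46.2 ± 38.8 TPM.

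Neutrophil markers were read beside these ligands. The 8 markers (Ly6g, Retnlg, Cxcr2, Mmp8, Ngp, Camp, Cd177 and Mpo) summed to 4.50, 1.02, 2.96, 1.49 and 2.55 TPM in N mice 1 to 5 and to 3.83, 1.7, 2.06, 0.343 and 4.69 TPM in E. The sums were 15.4, 2.25 and 25.4 TPM in Y, and 72.3, 67.1, 39.3, 121, 18.9 and 1.48 TPM in EY mice 1 to 6. Per transcript length Retnlg was the most abundant in Y and EY and Cxcr2 in N and E, and the defining marker Ly6g was at 0 in all N, E and Y mice. EY mouse 4 was highest for Cxcl1, Cxcl3, Cxcl5 and this sum, while EY mouse 6, with 108 TPM of Cxcl1, had a sum within the range of N. In EY against N 3 of the 8 rose (Ly6g, Mmp8 and Cd177). Ly6g had 35 reads in EY and 0 in N, which is at least 9.65-fold higher with 3 reads over the group as the floor, and Mmp8 had a log2 fold change of 3.58 ± 0.67 (adjusted p = 0.000313). Cd177 had 85 reads against 1, a ratio of 70.3 with a 95% counting interval from 12.3 to 2811. Its call was lost without any of N mice 2 to 5 or EY mice 1 to 4. It held in 7 of 12 alternatives, and not by voom. The adjusted p reached 0.0361 over the alternatives and the fits without 1 mouse. The part of these cells in the ligand values was not tested.

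**Figure D3:**
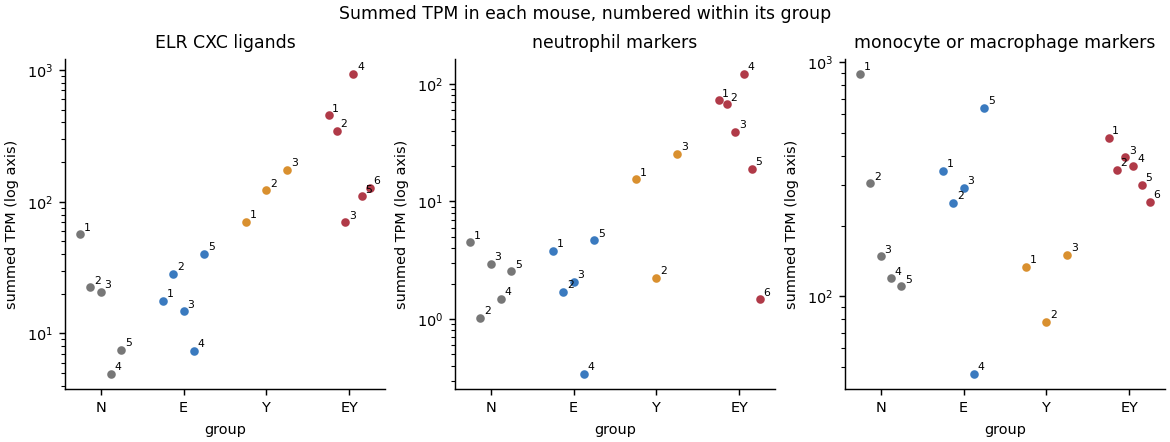
Summed deposited TPM of the 4 ELR CXC ligands (left), 8 neutrophil markers (middle) and 8 monocyte or macrophage markers (right), on log axes, with a point for each mouse numbered within its group. EY mouse 6 has a neutrophil sum of 1.48 TPM and an ELR ligand sum of 128 TPM, and N mouse 1 has a macrophage sum of 891 TPM.

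Cxcl9, Cxcl10 and Cxcl11 are induced by interferons and attract activated T cells and natural killer cells through CXCR3. All 3 were called in EY and 0 in Y and in E. At an unadjusted p under 0.05 limma gave 1 of the 3 in Y and 2 in E, and voom called 0 in both. In EY voom called 1 of the 3 (Cxcl11). Their median log2 fold changes were 4.59 (EY), 2.56 (Y) and 2.78 (E). E against Y was not compared.

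Cxcl10 was at 37.0, 3.12, 0.568, 3.06 and 0.739 TPM in N and at 13.6, 82.0, 46.9, 0.594 and 87.7 TPM in E mice. In Y it was at 10.9, 13.8 and 33.4 TPM, and EY ran from 31.4 through 68.7 to 195 TPM. N mouse 1 stood far above its group, E mouse 4 was at the level of the low N mice, and all EY mice but mouse 4 exceeded each N mouse. Cxcl10 rose in EY by 4.59 ± 1.16 on the log2 scale (adjusted p = 0.00378). Without N mouse 3 or N mouse 5 the adjusted p was 0.0134, and by voom 0.0282, within a range of 0.000402 to 0.0355 over the alternatives.

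The promoter of Cxcl10 is shown because it holds matches to 3 of the 4 motifs searched. It lies at chr5:92348890-92349139 on the minus strand of GRCm38.p6 (RefSeq, 250 bases before the gene start). From left to right the capitals mark an interferon-type motif GAAANNGAA at -213 to -205, the NF-kB consensus at -159 to -150, a pair of overlapping NF-kB matches at -104 to -94, and the AP-1 motif TGANTCA at -74 to -68.
Cxcl10: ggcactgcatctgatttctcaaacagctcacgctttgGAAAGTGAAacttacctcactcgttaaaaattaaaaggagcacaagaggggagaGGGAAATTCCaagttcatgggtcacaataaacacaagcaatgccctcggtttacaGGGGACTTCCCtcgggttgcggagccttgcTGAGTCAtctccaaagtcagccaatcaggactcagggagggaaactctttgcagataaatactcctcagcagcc

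Cxcl11 had 0.192 TPM in N mouse 1 and 0 in the other N mice, and 0.461, 5.78, 4.00, 0 and 3.06 TPM in E mice 1 to 5. The Y mice had 0.485, 1.5 and 1.10 TPM, and the EY mice 2.16 at the lowest, 5.92 at the median and 11.1 at the highest. All EY and all Y mice lay above all N mice, as did 4 of 5 E mice, with E mouse 4 at 0. With 341 reads in EY against 2 in N, the ratio per read was 141, with a 95% counting interval from 38.8 to 1170. Against N the ratio was 67.1 in E (interval 18.2 to 560) and 25.8 in Y (6.49 to 223). These exact binomial intervals cover counting error only, and the fitted change depends on the added 0.1 TPM. The test called Cxcl11 in EY (adjusted p = 3.63e-05), not in E (0.0323) or Y (0.0422).

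Cxcl9 was at 17.5, 0.435, 0.665, 0.511 and 0.494 TPM in N and at 5.45, 9.33, 6.27, 0.298 and 12.9 TPM in E. Its Y values were 1.39, 4.15 and 8.92 TPM, and EY ran from 4.67 through 14.1 to 51.2 TPM. N mouse 1 lay above 3 of the 6 EY mice, so the groups overlapped. The log2 fold change in EY was 3.73 ± 1.02 (adjusted p = 0.00674). That call was lost without any of N mice 2 to 5 and EY mice 2, 3 and 6 (adjusted p 0.0126 to 0.02), after scaling (3.38, adjusted p = 0.0145) and by voom (0.0266), in a range of 0.000412 to 0.0673.

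Cxcl16, which is displayed on the cell surface or shed and binds CXCR6 on T cells, gave the smallest adjusted p among the ligands. It stood at 24.4, 16.3, 10.7, 8.52 and 12.2 TPM in N and at 18.5, 30.9, 21.4, 15.6 and 32 TPM in E mice. The Y mice had 89.9, 117 and 125 TPM, and the EY mice from 145 through 168 to 187 TPM. All 6 EY mice lay above all Y mice, all Y mice above all E and N mice, and E overlapped with N. The log2 fold change was 3.63 ± 0.23 in EY (adjusted p = 2.87e-09, 6 of 6 mice) and 3.02 ± 0.28 in Y (adjusted p = 3.18e-06, 3 of 3 mice). After scaling these were 3.26 and 2.82. In E it was 0.75 ± 0.24, which did not pass the test (adjusted p = 0.11). Its share of the summed ligand level per transcript length was 7.90 ± 1.46% (N), 11.5 ± 4.69% (E), 26.9 ± 5.90% (Y) and 18.5 ± 6.20% (EY).

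Cxcl14, made constitutively by many epithelia, was 1 of the 2 ligands called lower. It was at 11.1, 18.2, 6.80, 9.52 and 7.85 TPM in N and at 7.41, 9.34, 8.26, 7.10 and 8.01 TPM in E. In Y it had 8.84, 3.13 and 4.79 TPM, and in EY from 0.487 through 3.23 to 6.49 TPM. All 6 EY mice lay below all N mice, with EY mouse 4 the lowest and EY mouse 3 the nearest to N. Cxcl14 fell by 2.01 on the log2 scale in EY (standard error 0.48, adjusted p = 0.00247), and by 2.38 after scaling. In a fit of EY and N alone the adjusted p was 0.0145, and with the 3 N mice of the first genotype it was 0.0102, at the upper end of its range over the alternatives from 4.3e-05.

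The remaining CXC ligands, Cxcl12 (CXCR4), Cxcl13 (CXCR5) and Cxcl17, were called in 0 of the comparisons with N. At an unadjusted p under 0.05 limma gave Cxcl12 in Y (log2 fold change -2.31, adjusted p = 0.144), and voom called 0 of the 3.

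**Figure D4:**
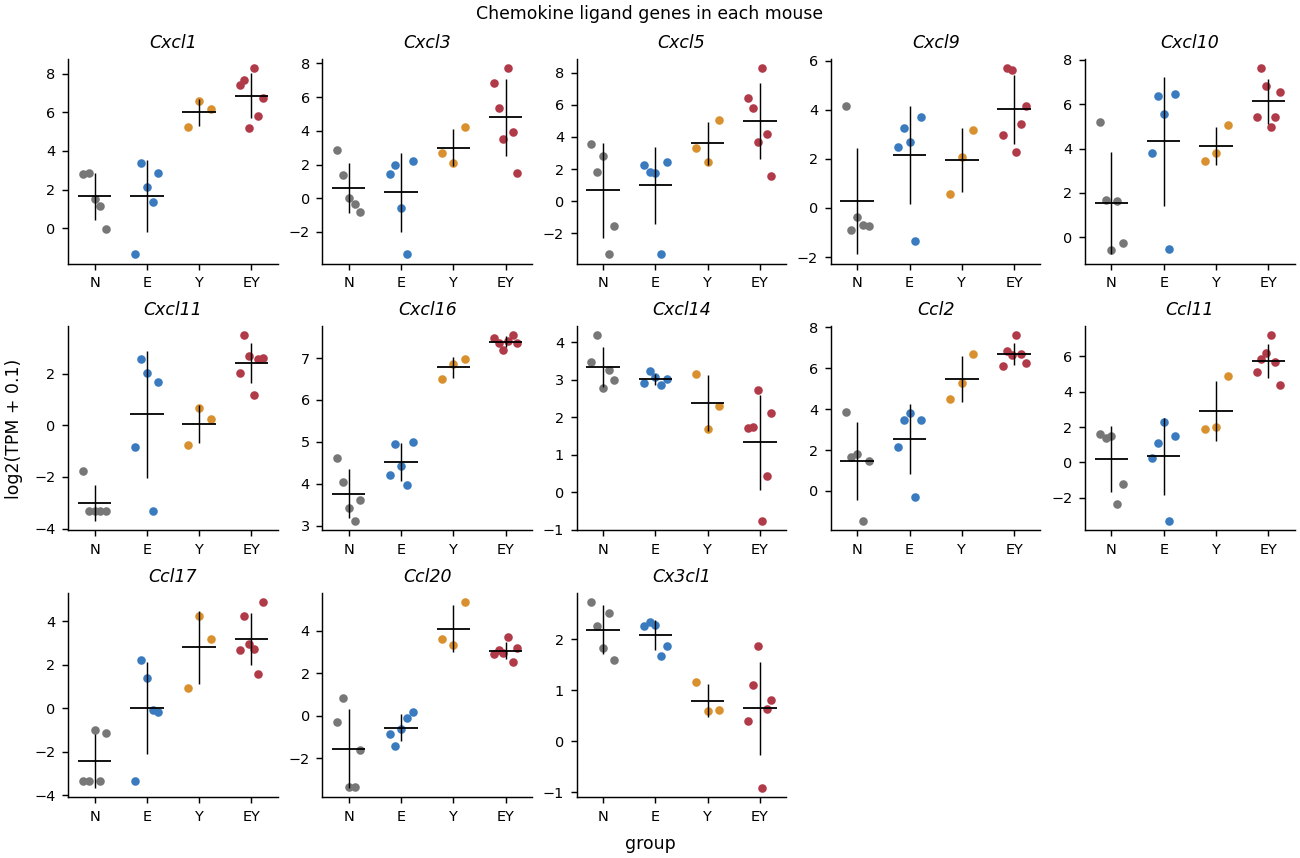
Log2(TPM + 0.1) of 13 chemokine ligand genes, each in its own panel, with a point for each N, E, Y and EY mouse, the group mean as a horizontal line and the SD as a vertical line. Cxcl16 shows the EY mice between 145 and 187 TPM, above all Y mice, and Cxcl14 and Cx3cl1 are lower in EY than in N.

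Ccl2, the main attractant of monocytes through CCR2, rose in EY and in Y. It was at 14.2, 3.11, 3.4, 0.261 and 2.65 TPM in N and at 4.37, 11, 14, 0.711 and 11 TPM in E mice. The Y mice had 22.2, 38.8 and 103 TPM, and EY ran from 69.2 through 102 to 196 TPM. All Y and EY mice lay above all N and E mice, N mouse 1 stood apart from its group, and EY mouse 4 was the highest. The log2 fold change was 5.23 ± 0.81 in EY (adjusted p = 4.59e-05) and 4.02 ± 0.97 in Y (adjusted p = 0.00876), and after scaling 4.87 and 3.84. The Y call held only when N mouse 1, E mouse 3 or E mouse 4 was the mouse left out, and the other 16 of 19 such fits lost it (adjusted p 0.0105 to 0.0642). It was also lost after scaling (0.0142), in a range of 0.00298 to 0.0642.

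Of the other ligands grouped with CCR2, Ccl7 was higher in EY by 4.10 ± 1.27 on the log2 scale without passing the threshold (adjusted p = 0.0147), and voom called it (0.0086). Ccl8 and Ccl12 were not called in any comparison, at 15.4 ± 14.2 and 1.49 ± 1.91 TPM in EY against 7.39 ± 12.0 and 0.886 ± 1.43 TPM in N. For Ccl7 and Ccl8 the highest N value, 18.9 and 28.6 TPM, was again that of N mouse 1. The 8 monocyte or macrophage markers (Cd68, Adgre1, Csf1r, Lyz2, Cd14, Ly6c2, C1qa and Mrc1) summed to 891, 304, 149, 119 and 111 TPM in N mice 1 to 5 and to 345, 251, 291, 46.8 and 640 TPM in E mice 1 to 5. The sums were 134, 77.8 and 151 TPM in Y and 477, 348, 393, 363, 301 and 253 TPM in EY mice 1 to 6, with Lyz2 the most abundant per transcript length. In EY against N 0 of the 8 were called by limma or by voom, and 2 had an unadjusted p under 0.05. The Y mice, with Ccl2 above all N mice, had sums at or below 151 TPM. N mouse 1 and E mouse 4 held the highest and lowest sums of all mice, as they often did for ligand levels within their groups, and the part of these cells was not tested.

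Ccl11, or eotaxin, attracts eosinophils through CCR3. It was at 3.00, 2.51, 2.74, 0.0958 and 0.324 TPM in N and at 1.07, 2.02, 4.75, 0 and 2.69 TPM in E. In Y it had 3.65, 3.84 and 29.6 TPM, and in EY from 21.0 through 54.2 to 148 TPM. Each EY mouse exceeded the N and E mice, and all but EY mouse 6 exceeded the Y mice, among which mouse 3 alone was high. Ccl11 rose in EY (log2 fold change 5.55 ± 0.97, adjusted p = 0.000157, after scaling 5.22). In Y the value was 2.74 ± 1.17 (adjusted p = 0.127). Of the 3 eosinophil markers fixed, Prg2 and Epx were not in the table, and Siglecf was at most 0.41 TPM in any mouse and not called. The receptor Ccr3 had 8 reads in EY and 3 in N and did not pass the filter.

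Other inflammatory CC ligands (Ccl3, Ccl4, Ccl5, Ccl6, Ccl9 and Ccl24), which attract monocytes, T cells or eosinophils, were called in 0 of the 6 comparisons by limma and by voom. Against N, limma gave Ccl5 in E and Ccl6 and Ccl9 in Y at an unadjusted p under 0.05. Ccl6 averaged 29.9 ± 14.7 TPM (N), 23.9 ± 19.6 (E), 10.9 ± 2.05 (Y) and 24.2 ± 5.38 (EY). All 3 Y mice lay below all N mice for Ccl6, with a log2 fold change of -1.33 ± 0.56 (adjusted p = 0.119). Ccl9 averaged 15 ± 15.8 TPM (N) and 2.48 ± 0.378 (Y) (-2.01 ± 0.94, adjusted p = 0.17), with N mouse 1 at 41.8 TPM.

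Ccl17 and Ccl22 attract CCR4-bearing T cells, including helper and regulatory cells. Ccl17 was at 0, 0, 0.404, 0 and 0.35 TPM in N and at 0, 4.50, 2.50, 0.845 and 0.792 TPM in E. The Y mice had 1.82, 18.9 and 9.08 TPM, and EY ran from 2.91 through 7.13 to 29.5 TPM. All Y and EY mice lay above all N mice, and so did 4 of 5 E mice. Only 2 reads in N stood against 189 in EY and 73 in Y, which gives ratios of 78.2 (95% counting interval 21.4 to 650) and 67.1 (17.9 to 565). The ratio in E was 11.4 (2.80 to 101). The test called Ccl17 in EY (adjusted p = 6.72e-05) and in Y (0.00319), not in E (0.208). Without Y mouse 2 or Y mouse 3 the Y call was lost (adjusted p 0.0236 and 0.0207), in a range from 0.00074 over the alternatives.

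Ccl22 lies near Ccl17 on chromosome 8 and did not pass the test in any comparison. It averaged 3.32 ± 1.92 TPM (N), 7.06 ± 2.58 (E), 8.70 ± 2.32 (Y) and 5.71 ± 2.98 (EY), with log2 fold changes of 1.17, 1.5 and 0.79 (adjusted p = 0.125, 0.0287 and 0.101). Ccl1, the CCR8 ligand, was under the filter, with 38 reads in EY, 10 in E, 4 in Y and 0 in N. With 3 reads over the N group as the floor, Ccl1 was at least 10.5-fold higher in EY, 3.63-fold in E and 2.45-fold in Y. Of these reads 21 of 38 came from EY mouse 2 and 6 of 10 from E mouse 3, and EY mouse 6 had 0, so the bounds rest largely on single mice. Per transcript length it averaged 2.03 in EY, and only in the fit on that scale, chosen after seeing the data, did it pass the filter and get called.

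Ccl20 attracts CCR6-bearing dendritic cells and T cells and is an epithelial product in inflamed mucosa. It was at 0.712, 1.71, 0, 0 and 0.231 TPM in N and at 0.456, 0.27, 0.549, 0.835 and 1.04 TPM in E. The Y mice had 12.0, 10.1 and 40.8 TPM, and the EY mice 5.76 at the lowest, 8.04 at the median and 13.1 at the highest. All Y and EY mice lay above all N and E mice, and 5 of 6 EY mice lay below all Y mice. Ccl20 rose in Y (log2 fold change 5.64 ± 0.77, adjusted p = 0.000108) and in EY (4.61 ± 0.64, adjusted p = 1.53e-05), after scaling by 5.53 and 4.33. EY against Y gave -1.03 ± 0.75, which did not pass the test (adjusted p = 0.428, interval -2.60 to 0.54). In a fit of Y and N alone the adjusted p was 0.014, at the end of a range from 9.4e-06 over the alternatives.

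The promoter of Ccl20 is shown because it holds both a match to the NF-kB consensus, at -80 to -71, and the TEAD motif read on the other strand, at -45 to -40. It lies at chr1:83116516-83116765 on the plus strand of GRCm38.p6 (RefSeq, 250 bases before the gene start), and capitals mark those matches.
Ccl20: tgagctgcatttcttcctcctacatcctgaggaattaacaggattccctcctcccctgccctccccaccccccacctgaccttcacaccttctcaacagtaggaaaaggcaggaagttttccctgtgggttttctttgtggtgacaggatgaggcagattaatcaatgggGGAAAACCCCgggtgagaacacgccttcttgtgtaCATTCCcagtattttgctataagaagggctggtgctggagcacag

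Cx3cl1, or fractalkine, is anchored to the membrane of endothelial and epithelial cells and binds CX3CR1. It was at 6.56, 4.72, 3.44, 5.67 and 2.93 TPM in N and at 4.73, 4.97, 4.75, 3.08 and 3.55 TPM in E. In Y it had 2.15, 1.40 and 1.44 TPM, and in EY from 0.431 through 1.55 to 3.55 TPM. All Y mice and 5 of 6 EY mice lay below all N mice, with EY mouse 3 as the exception. Cx3cl1 fell by 1.54 on the log2 scale in EY (standard error 0.36, adjusted p = 0.00213), and by 1.90 after scaling. In Y the value was -1.40 ± 0.44, beyond the fold limit with an adjusted p of 0.036. In a fit of EY and N alone the adjusted p in EY was 0.0139, at the upper end of a range from 8.3e-05. It lies between Ccl22 and Ccl17 on chromosome 8, so that a ligand that rose and a ligand that fell are next to each other.

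The ligands of lymphoid homing and of mucosal homing were not called against N. Ccl21a (CCR7) averaged 11.4 ± 7.02 TPM (N) and 34.2 ± 37.9 (EY), with EY mouse 3 at 109 TPM, and Ccl19 had 3 reads in N and 2 in EY. Reads of both genes and of Ccl27a are uncertain, because the mouse genome holds near-identical copies of them. Ccl25 (CCR9) averaged 1.17 ± 0.341 TPM (N) and 1.08 ± 0.28 (EY), Ccl27a (CCR10) at 2.61 ± 1.03 and 2.44 ± 0.83, and Ccl28 (CCR10) at 0.0733 ± 0.0556 and 0.101 ± 0.0842. Their log2 fold changes in EY were between -0.08 and 0.16 as deposited and between -0.43 and 0.03 after scaling. Xcl1, a ligand of cross-presenting dendritic cells, averaged 0.24 ± 0.248 TPM (N) and 0.415 ± 0.478 (EY) and was at 0 in all Y mice. For the 5 of these genes that were tested, all but Ccl19, limma gave 0 at an unadjusted p under 0.05 against N and voom called 0.

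The comparison of EY with Y asks what E6-E7 adds to YAP1S127A. Of the 32 ligands, 0 were called higher, beside 1.07% of all genes, and 0 lower, beside 0.928%. By limma 8 of the 32 had an unadjusted p under 0.05, all higher in EY, beside 5425 of all 22745 genes in either direction. Voom called 0. The 8 were Cxcl11, Cxcl12, Cxcl16, Ccl5, Ccl6, Ccl9, Ccl11 and Ccl21a. Markers of other cells were also higher in EY than in Y at that unadjusted level: 4 of 4 of skeletal muscle (median log2 fold change 2.96), 4 of 8 of monocytes or macrophages (1.42) and 3 of 6 of fibroblasts (2.00), 2 of 6 of T cells (1.23), 2 of 6 of Langerhans or dendritic cells (0.58, with 1 lower), 2 of 4 of blood endothelium (1.09) and 1 of 3 of lymphatic endothelium (0.77). Limma and voom called 0 of these markers, and their part in the ligand values was not tested. Their counts stand beside the same 5425 of 22745 genes. In the epithelial list 4 of 7 genes were at that level, 2 of them higher, with 0 called by limma and 1 by voom. Of the 8 neutrophil markers, all above 0 in log2 fold change, 2 had an unadjusted p under 0.05, and Ly6g was called higher by limma (35 reads against 0, at least 5.25-fold, adjusted p = 0.00982) but not by voom. That call was lost in every fit without 1 mouse except the fit without EY mouse 6. Its adjusted p reached 0.0908 over the alternatives and these fits. Ccl11 differed by 2.81 ± 1.13 on the log2 scale (adjusted p = 0.137) and Cxcl16 by 0.61 ± 0.27 (adjusted p = 0.172). For Cxcl1 and Ccl2 the intervals ran from -1.06 to 2.76 and from -0.78 to 3.20, so a difference was not resolved with 3 Y mice. The median log2 fold change was 1.17 over the ligands, also with Ccl12 and Xcl1 at their bounds, and 0.18 over all genes. The share of called genes that were higher moved from 53.5% of 454 to 30.3% of 406 after scaling.

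EY against E asks what YAP1S127A adds to E6-E7. Of the 32 ligands, 7 were called higher, beside 7.82% of all genes, and 1 lower, beside 4.99%. Those higher were Cxcl1 (5.18 ± 0.77), Cxcl3 (4.45 ± 1.13), Cxcl16 (2.88 ± 0.23), Ccl2 (4.17 ± 0.81), Ccl11 (5.39 ± 0.97), Ccl17 (3.18 ± 0.90) and Ccl20 (3.63 ± 0.64 on the log2 scale). All 6 EY mice lay above all E mice for Cxcl1, Cxcl16, Ccl2, Ccl11 and Ccl20, and 5 of 6 for Cxcl3 and Ccl17. Cx3cl1 fell by 1.44 (standard error 0.36, adjusted p = 0.00448), with 5 of 6 EY mice below all E mice. Cxcl14 was not called (-1.69 ± 0.48, adjusted p = 0.0106), although all 6 EY mice lay below all E mice, and it was called after scaling (-1.94) and by voom (0.000682). The 3 CXCR3 ligands were not among those called: Cxcl9, Cxcl10 and Cxcl11 differed by 1.86, 1.81 and 2.00 (adjusted p = 0.177, 0.251 and 0.0674). The median was 1.33 over the ligands and 0.26 over all genes, and after scaling the share of called genes that were higher went from 61.1% of 2914 to 38.9% of 2572.

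Cell markers also differed between EY and E. Of 8 neutrophil markers 6 had an unadjusted p under 0.05, all higher in EY, and 3 were called: Ly6g (35 reads against 0, at least 8.85-fold), Mmp8 (3.30 ± 0.67, adjusted p = 0.000841, not called by voom) and Cd177. Cd177 had 85 reads against 1, a ratio of 64.5 with a 95% counting interval from 11.3 to 2578. Its call was lost without any N mouse, any E mouse or any of EY mice 1 to 4. It held in 5 of 12 alternatives, and not after scaling or by voom. The adjusted p reached 0.0328 over the alternatives and the fits without 1 mouse. Mrc1 of the monocyte or macrophage list was called higher (1.86 ± 0.47, not called after scaling) and Dcn of the fibroblast list lower (-1.60 ± 0.43, adjusted p = 0.00746), both also by voom. The Mrc1 call was lost without any of E mice 1, 3 and 4 or EY mice 3 and 6. That of Dcn was lost without any E mouse or any of EY mice 1, 2, 4 and 5. Over the alternatives and the fits without 1 mouse, the adjusted p reached 0.0157 for Mrc1 and 0.0231 for Dcn. Of 4 skeletal muscle markers 3 were higher at an unadjusted p under 0.05 (median 2.43), with 0 called by limma or voom. At that level 3 of 6 T cell, 2 of 4 blood endothelial, 1 of 3 lymphatic endothelial and 1 of 4 mast cell markers were higher. Limma and voom called 0 of these. Of 6 Langerhans or dendritic cell markers 3 were at that level, 2 of them higher, with 1 called by voom. In the epithelial list Krt14 was called higher, which was lost after scaling and by voom, and Krt13 and Krt4 lower. The part of these cells in the ligand values was not tested.

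Some of these calls against E did not hold when 1 mouse was left out. Ccl17, with an adjusted p of 0.00992, was lost in 14 of 19 such fits (0.0104 to 0.03), after scaling (0.0182) and by voom (0.0116), in a range of 0.00411 to 0.0442. The 5 fits that kept it were those without E mouse 2, E mouse 3, Y mouse 1, Y mouse 2 or EY mouse 5. Cxcl3 (adjusted p = 0.00498) was lost without E mouse 3 or 4 or EY mouse 1, 2 or 4 (0.0111 to 0.0157) and by voom (0.0919), in a range of 0.00141 to 0.0919. Cx3cl1 was lost without E mouse 1, 2 or 3 or EY mouse 1 (0.0104 to 0.0127). Without EY mouse 1 the count was 5.

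Whether the joint effect differs from the sum of the single effects was tested by the interaction EY - E - Y + N. By limma 0 of the 32 ligands were called higher, beside 0.00879% of all genes, and 0 lower, beside 0.167%. An unadjusted p under 0.05 was found for 5 ligands, beside 3072 of all 22745 genes, and voom called 0. Of those 5, 4 lay above 0: Ccl21a (5.79 ± 1.99, adjusted p = 0.2), Cxcl12 (3.27 ± 1.33, 0.283), Ccl9 (2.76 ± 1.23, 0.332) and Ccl6 (1.75 ± 0.72, 0.291). The other, Ccl22, had the lowest p, at -1.88 ± 0.58 (adjusted p = 0.145). The median was 0.36 over the ligands, 22 of 32 being above 0, and 0.08 over all genes. Ccl20 had -2.01 ± 1.00 (adjusted p = 0.394) and Cxcl16 -0.14 ± 0.36 (adjusted p = 0.903, interval -0.90 to 0.62).

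On the receptor side, 16 of 18 chemokine receptor genes were tested, Ccr3 and Cx3cr1 being under the filter. In EY against N 4 rose and 0 fell (8 at an unadjusted p under 0.05 by limma, all higher, and 2 called by voom). They were Ccr1 (log2 fold change 2.12 ± 0.44, adjusted p = 0.000704), Cxcr4 (2.08 ± 0.49, adjusted p = 0.00239), Ccr6 (1.33 ± 0.36, adjusted p = 0.00622) and Ccr7 (2.17 ± 0.63, adjusted p = 0.00999). The Ccr1 call was lost with only 3 N mice (adjusted p = 0.0125). The Cxcr4 call was lost after scaling, with only 3 N mice and with mouse number as a block (adjusted p up to 0.0289). With 1 mouse left out, Ccr7, which guides dendritic cells to lymph nodes, kept its call only without N mouse 1 or 2, E mouse 2 or 4 or EY mouse 3. Ccr6, the Ccl20 receptor, lost it without any of N mice 2 to 5 or EY mice 2, 5 and 6. Over the alternatives and the fits without 1 mouse, the adjusted p reached 0.0874 for Ccr7 and 0.0595 for Ccr6. Among the alternatives Ccr6 was called in 3 of 12 (log2 fold change 0.40 to 1.88) and Ccr7 in 3 of 13 (0.81 to 3.55), and neither after scaling or by voom. The partners of the other called ligands were not called: Cxcr2 averaged 1.13 ± 0.998 TPM (N) and 4.98 ± 3.58 TPM (EY, adjusted p = 0.0197), and Cxcr3 0.843 ± 1.19 and 0.788 ± 0.788 TPM (0.727). Cxcr6 averaged 1.31 ± 0.805 and 2.55 ± 2.02 TPM (adjusted p = 0.172), and Ccr2 1.76 ± 1.67 and 4.70 ± 1.81 TPM (0.0176). In Y and in E against N 0 receptors were called, with 2 at an unadjusted p under 0.05 in each and 0 by voom. Ccr1 was called in EY against E in all 13 alternatives. Ccr6 was called there too, but only in 6 of 12, and not after scaling, by voom or without E mouse 3 or 4 or EY mouse 2. Its adjusted p reached 0.0149 over the alternatives and the fits without 1 mouse. The 5 atypical receptors, which take up ligands without signalling to migration, gave 0 calls, 0 at an unadjusted p under 0.05 and 0 by voom in all 6 comparisons.

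Cytokines that induce chemokines formed a list of 13 genes. In EY against N 3 rose and 2 fell, in Y against N 2 rose, and in E against N 0 were called (2 at an unadjusted p under 0.05 by limma, 0 by voom). Tslp, an epithelial cytokine known to make dendritic cells release Ccl17, was at 0, 0.929, 0.58, 0 and 0.503 TPM in N, 1.49, 3.67, 2.99, 1.06 and 3.55 TPM in E, and 1.31, 15 and 6.95 TPM in Y. In EY it ran from 4.94 to 17.4 TPM. All Y and EY mice, and all E mice, lay above all N mice. The log2 fold change of Tslp was 5.05 ± 0.68 in EY (adjusted p = 1.12e-05) and 3.99 ± 0.82 in Y (adjusted p = 0.00301). The Y call of Tslp was lost without Y mouse 2 or 3, with only 3 N mice and in a fit of Y and N alone (adjusted p up to 0.0494). Il17c, an epithelial member of the interleukin 17 family, averaged 0.388 ± 0.559 TPM (N), 9.28 ± 1.55 (Y) and 2.05 ± 0.981 (EY) (5.19 ± 0.90 in Y, adjusted p = 0.000786, and 2.93 ± 0.75 in EY, adjusted p = 0.00393). The EY call of Il17c was lost without N mouse 1, 3 or 5 or EY mouse 1, after scaling, by voom and in a fit of EY and N alone (adjusted p up to 0.0142). Its Y call was lost in a fit of Y and N alone (adjusted p = 0.0153). Il17f had 0 reads in N and 23 in EY, at least 6.34-fold higher. Its call held in 11 of 12 alternatives and was lost at a pseudocount of 1 TPM. The fitted log2 fold change of Il17f ran from 0.23 to 3.97 over the alternatives and the fits without 1 mouse. Il36a and Il36b fell in EY by 1.62 and 2.48 on the log2 scale, and the Il36a call was lost with only 3 N mice and with only the groups compared (adjusted p up to 0.0162). Tnf and Il1b, at 10.3 ± 3.90 and 21.9 ± 16.4 TPM in EY against 4.67 ± 2.16 and 5.45 ± 5.09 in N, were not called.

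Of 10 genes of NF-kB and interferon responses, 7 rose in EY against N and 4 in Y. Tnfaip3, a target and brake of NF-kB, averaged 3.54 ± 0.764 TPM (N), 4.80 ± 1.75 (E), 33.6 ± 6.56 (Y) and 28.5 ± 7 (EY) (log2 fold change 3.22 ± 0.27 in Y and 2.95 ± 0.22 in EY, adjusted p = 1.19e-06 and 1.68e-08). Nfkb2 rose by 2.08 in EY and 1.47 in Y, Relb by 1.59 and 1.06, and Nfkbia by 1.15 and 1.27. After scaling Nfkbia in EY (0.77), Nfkb1 in EY (1.01, 0.64 after scaling) and Relb in Y (0.88) were under the fold limit. Irf7 (2.29) and Irf1 (1.7) rose in EY against N, and their calls were lost after scaling. Neither was called in EY against Y or against E. Irf7 also lost its call without any of N mice 2 to 5 or EY mice 1, 2, 3, 5 and 6, and Irf1 without N mouse 3, 4 or 5 or EY mouse 2 or 3. Over the alternatives and the fits without 1 mouse, the adjusted p reached 0.0552 for Irf7 and 0.0523 for Irf1. Nfkb1 in EY, without N mouse 4 or 5 or EY mouse 1 or 2, and Relb in Y, without N mouse 4 or Y mouse 2, lost theirs because the log2 fold change went under 1 (0.93 to 0.99 for Nfkb1, 0.96 and 0.97 for Relb), while the adjusted p stayed under 0.01 (at most 2.3e-05 and 0.00411).

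Ligand genes that lie in runs on the genome are given with their calls in EY against N, where 10 of 32 ligands and 12.6% of all genes were called higher. Whether neighbours share calls more often than other ligands was not tested. On chromosome 5 both neighbours Cxcl9 and Cxcl10 were called higher in EY. On chromosome 11 the run Ccl2, Ccl7, Ccl11, Ccl12, Ccl8 and Ccl1 held 2 genes called in EY (Ccl2 and Ccl11), and the run Ccl5, Ccl9, Ccl6, Ccl3 and Ccl4 held 0. The run Cxcl5, Ppbp, Pf4, Cxcl3, Cxcl1 and Cxcl2 on chromosome 5 held 3, since Ppbp rose by 6.29 ± 1.55 on the log2 scale (adjusted p = 0.00318). Ppbp, known as a platelet CXCR2 ligand, averaged 8.38 ± 11.2 TPM (N), 11.4 ± 24.3 (E), 75.7 ± 35.6 (Y) and 198 ± 166 (EY). Its call was lost without N mouse 4 or 5, with only 3 N mice and at a pseudocount of 0.01 TPM (adjusted p up to 0.0538). Pf4, the other platelet chemokine, averaged 17.7 ± 22.6 TPM (N) and 12.8 ± 8.84 (EY) and was not called. The order of genes is from RefSeq, where 33 of the 34 symbols matched.

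Promoter windows from 250 bases before to 50 after the gene start were found for 24 of the 34 ligands, in 27 windows, among 32851 windows in all. Without a window, and so not searched, were Cxcl5, Cxcl11, Cxcl16, Cxcl17, Ccl2, Ccl4, Ccl5, Ccl7, Ccl11 and Ccl24. Of these Cxcl11, Cxcl16, Ccl2 and Ccl11 were called higher in EY against N. On either strand, the NF-kB consensus was in 8 of the 24 ligands (Ccl1, Ccl9, Ccl20, Ccl27a, Cxcl1, Cxcl2, Cxcl3 and Cxcl10) and in 8.46% of all windows. The AP-1 motif was in 5 ligands and 7.81% of windows, the interferon-type motif in 6 and 8.56%, and the TEAD motif in 4 (Ccl17, Ccl20, Cxcl3 and Cxcl13) and 14.7%. Counted by window, as for all windows, the ligands had 8, 5, 6 and 4 of 27 in that order. Overlaps between different motifs were not found in the promoters printed. Cx3cl1 held none of the 4 motifs in this window, which says only that these letters are not there. No test was made of these shares.

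**Figure D5:**
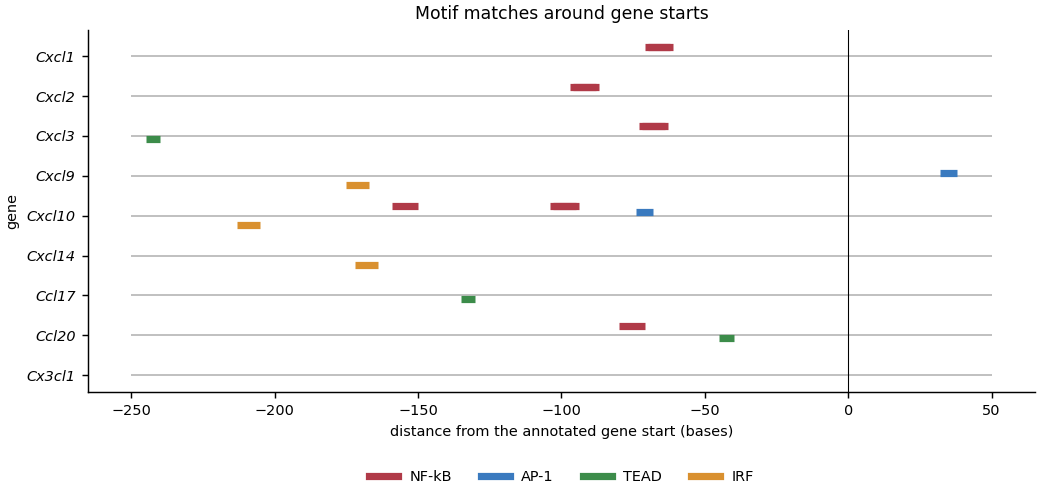
Positions of matches to 4 motifs around the gene starts of 9 ligands, in bases from the annotated start, with a color for each motif and the window from 250 bases before to 50 after the start as a grey line. The NF-kB consensus lies between -97 and -61 in Cxcl1, Cxcl2 and Cxcl3 and at -80 to -71 in Ccl20.

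Other cell types were read by their markers, each list summed in TPM. T cell markers (Cd3e, Cd3d, Cd4, Cd8a, Trac and Trdc, with Trac the most abundant per transcript length) summed to 2.92 ± 2.10 (N), 3.58 ± 2.31 (E), 2.96 ± 1.78 (Y) and 7.34 ± 1.49 (EY), with all 6 EY mice above the highest N mouse. Of the 6 genes 1 rose in EY (Cd3d, 2.75 ± 0.67). Its call was lost without N mouse 4, with only 3 N mice, with mouse number as a block and at a pseudocount of 1 TPM. Over these fits the adjusted p was at most 0.0119 and the log2 fold change at least 0.94. Langerhans or dendritic cell markers gave 24.8 ± 9.60 in N and 52.8 ± 12.2 in EY. Of these Epcam, shared with the epithelial list, was the most abundant per transcript length and rose. Cd207, the defining Langerhans marker, fell by 1.86 on the log2 scale, so that 1 of 6 rose and 1 fell. The Cd207 call was lost without N mouse 1 and in a fit of EY and N alone (adjusted p up to 0.0198). Fibroblast markers gave 144 ± 101 (N), 80.6 ± 19.4 (E), 34.1 ± 10.1 (Y) and 86.8 ± 52.6 (EY), and in EY against N 1 of 6 fell (Dcn, the most abundant per transcript length). The other 5 had log2 fold changes above 0, so that the median over the list was 0.39. Skeletal muscle markers reached 1088 in EY mouse 3, against 211 at most in N, with 0 of 4 called by limma or voom and 0 at an unadjusted p under 0.05 in EY against N. Blood endothelial markers gave 0.735 ± 0.509 in N and 2.19 ± 1.57 in EY, and 1 of 4 rose (Tie1). The Tie1 call was lost without N mouse 4 or 5 or EY mouse 1, 2 or 3. It held in 6 of 13 alternatives, and not after scaling, by voom or with only 3 N mice. Its adjusted p reached 0.0773 over the alternatives and the fits without 1 mouse. Lymphatic endothelial markers gave 0.75 ± 0.73 and 2.55 ± 2.24 (0 of 3 called by limma or voom, 1 at an unadjusted p under 0.05). Mast cell markers gave 2.86 ± 2.86 and 2.80 ± 2.75 (0 of 4, and 0 at an unadjusted p under 0.05), and the 2 salivary gland markers in the table, of 4, gave 13.4 ± 23.5 and 0.819 ± 0.421 (0 of 2, with 1 at an unadjusted p under 0.05). In the epithelial list Krt14, Cdh1 and Epcam rose and Krt13 and Krt4 fell in EY against N. The Cdh1 call (1.16 ± 0.15) was lost after scaling, with only 3 N mice and by voom, where the change was under the fold limit (down to 0.75). The part of these cells in the ligand levels was not tested.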

How the data were processed

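RNA-seq values of tongue epithelium from 19 mice were used, with groups taken from the titles and genotypes in the labels. The authors aligned reads to GRCm39 with STAR 2.7.9, sorted them with SAMtools 1.7, counted them per gene with HTSeq 0.13.5, and deposited TPM, with 1 column per mouse summing to 1000000. How counts became TPM is not stated, and the values follow the gene span. Whole reads were recovered from the steps of the TPM (24680 of 24680 genes above 0, within 0.001 reads), between 8269674 and 11007304 per mouse, and served for depth, counting intervals, voom and levels per transcript length.

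The main test was limma 3.58.1 in R 4.3.3 (lmFit, then eBayes with a trend) on log2(TPM + 0.1), with all 4 group means in 1 model and Benjamini-Hochberg adjustment over 22745 genes. Thresholds were an adjusted p of 0.01 and a log2 change of 1. An unadjusted p under 0.05 by limma was reached by 11043 of the 22745 genes in EY against N, 6562 in Y against N and 3358 in E against N. It was reached by 9909 in EY against E, 5425 in EY against Y and 3072 in the interaction. Counts of ligands, receptors and markers at that level stand beside these numbers. The model and the read recovery were tested on simulated data. Tables and figures were made with pandas 2.3.3, matplotlib 3.10.9 and numpy 2.4.6 under Python 3.11.15.

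Any ligand or listed gene may be named, and full values are given for ligands called in at least 1 comparison and for the 5 with the highest mean TPM. The members and lists were chosen with earlier results of these data known. Alternatives were pseudocounts of 1 and 0.01 TPM, a filter of 1 TPM or none, quantile normalization, median-of-ratios scaling, an N group of only the 3 mice with Krt14-CreERT and LSL-rtTA and no effector, only the groups compared, mouse number as a block, an adjusted p of 0.05, no limit on the fold change, voom with TMM factors, leaving out each mouse, and, chosen after seeing the data, TPM per transcript length. Labels and methods name no batch. The transgenes were not analysed.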

Additional observations from a re-analysis of the deposited data

Results flagged for a closer look

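Among the 13 ligands given in full, 39 groups of 5 or 6 mice were examined for a mouse far from the rest of its group by Dixon's criterion at 95%, and 6 stood out. For independent normal values chance gives about 1 in 20 groups, but these TPM are skewed and 4 of the 6 are the same mouse, so 6 of 39 cannot be compared with that rate. N mouse 1 was the highest of its group for Ccl2 (14.2 TPM, next 3.4), Cxcl9 (17.5 TPM, next 0.665), Cxcl10 (37.0 TPM, next 3.12) and Cxcl11 (0.192 TPM, the others at 0). For Cxcl11 the ratio is 1 for any value above 0, so its place among the 6 carries no information. The same mouse had the highest monocyte or macrophage marker sum of all mice (891 TPM), whose part in these values was not tested. EY mouse 4 was the highest of its group for Ccl2 (196 TPM, next 114) and Cxcl5 (312 TPM, next 85.5). It also had the highest neutrophil marker sum (121 TPM), whose part was not tested. Called without N mouse 1 and without EY mouse 4 were Ccl2, Cxcl9, Cxcl10 and Cxcl11 in EY against N.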

How the results depend on the processing

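Over 13 alternatives and 19 fits without 1 mouse, 0 of the 25 ligand results called in a comparison changed direction, and 12 of the 25 were called throughout. These were Cxcl1, Cxcl11, Cxcl16, Ccl2, Ccl11, Ccl17 and Ccl20 in EY against N, Cxcl16 in Y against N, and Cxcl1, Cxcl16, Ccl2 and Ccl11 in EY against E. Of 56 results of listed genes, 0 changed direction and 20 were called throughout. The number of ligands called in EY against N, 12, was 8 with only 3 N mice and 9 with only the groups compared. The number called in Y against N, 5, was 2 with only 3 N mice, 3 with only the groups compared, 3 with mouse number as a block and 8 at an adjusted p of 0.05. In E against N it was 1 instead of 0 at an adjusted p of 0.05, and in EY against E 5 instead of 8 with only the groups compared. With only 3 N mice the model has fewer samples and also lacks the other N genotypes, which cannot be told apart. With only the groups compared it also rests on fewer samples. For these fits and for the block the cause of the changed counts was not tested. Without 1 mouse at a time the counts ran from 9 to 15 in EY against N, 2 to 6 in Y against N, 0 to 1 in E against N, 0 to 0 in EY against Y, 5 to 8 in EY against E and 0 to 0 in the interaction. With the block they were 10, 3, 0, 0, 8 and 0 in that order, although correlations of 24 same-number pairs of mice, from -0.043 to 0.076, give no sign that numbers pair mice. The interaction needs all 4 groups and has no fit of fewer. TPM per transcript length, chosen after seeing the data, gave 13 ligands in EY against N, Ccl1 being the addition, and 9 in EY against E.

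Y has 3 mice, so differences between EY and Y have wide intervals. Ligands with a few reads in N (2 for Ccl17 and for Cxcl11) have fitted changes that depend on the pseudocount, from 2.62 to 8.17 for Cxcl11 in EY. Counting intervals treat reads as independent molecules. The N group mixes 3 genotypes.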
